A study of Mus musculus with 12 samples.

Results

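The genes described here encode proteins of respiratory complex III, complex IV and ATP synthase, the last stages of the mitochondrial chain, together with cytochrome c. They were chosen by name, as the genes with a probe set carrying exactly 1 symbol that starts with Uqcr, Cox4, Cox5, Cox6, Cox7, Cox8 or Atp5, plus Cyc1 and Cycs, with Cox6b2 left out and the brightest probe set kept for each gene. This gave 44 of the 22180 genes with such a probe set. By role they were 8 members of complex III, 1 carrier (Cycs), 15 members of complex IV, the supercomplex factor Cox7a2l, 17 members of ATP synthase and 2 pseudogenes. Uqcr10 and Cox6c had only probe sets shared with another symbol and were not used. The mitochondrial genes of these complexes are not described here.

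The tissue was brown fat of male mice, 10 weeks old and fed standard chow, with the depot not named in the labels. Mice were either wild type (WT) or lacked Zbtb7b, which encodes a zinc finger transcription factor (knockout, KO), and were held at 22 °C (room temperature) or spent 4 h at 4 °C (cold). Each of the 4 groups had 3 arrays, called biological replicates in the titles, while another label field numbers pools, so the number of animals behind an array is unknown. The p-values set group differences against the spread between arrays within groups. That spread may be technical and may not include differences between animals. The type of knockout allele, its tissue range and the strain are not given in the sources used here.

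Complex III takes electrons from ubiquinol and passes them to cytochrome c, a small soluble carrier. Complex IV, cytochrome c oxidase, hands those electrons to oxygen. Both pump protons, and ATP synthase uses the proton gradient to make ATP. In brown fat the uncoupling protein Ucp1 lets protons back in and releases the energy as heat, so the tissue is rich in respiratory chain but poor in ATP synthase for its mass of mitochondria. Several complex IV subunits exist in alternative forms, some of them typical of heart, skeletal muscle and brown fat and others found in most tissues.

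Promoter sequences are printed for 5 members, 4 that passed the test of cold over both genotypes (Cox7c, which rose, and Atp5g2, Cox6b1 and Cox7a2, which fell) and Cox6a1, which did not pass. Each holds the 250 bases before the annotated start, 5′ to 3′ on the gene's strand, from RefSeq on GRCm38.p6. All 5 genes lie on the minus strand. The windows are chr13:86046796-86047045 for Cox7c, chr15:102671048-102671297 for Atp5g2, chr7:30626115-30626364 for Cox6b1, chr9:79759854-79760103 for Cox7a2 and chr5:115348959-115349208 for Cox6a1. Capitals mark matches, on either strand, to motifs of the factors NRF1 (the 10-base palindrome printed in capitals in Atp5g2, or a looser form in which its central A may be any base, which includes it) and GABPA (CCGGAAG), both known regulators of nuclear respiratory genes.
Cox7c: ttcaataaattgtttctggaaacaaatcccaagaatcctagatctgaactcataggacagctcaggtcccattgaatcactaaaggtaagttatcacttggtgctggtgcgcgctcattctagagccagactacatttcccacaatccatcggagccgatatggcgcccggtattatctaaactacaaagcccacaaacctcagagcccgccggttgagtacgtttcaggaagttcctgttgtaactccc
Atp5g2: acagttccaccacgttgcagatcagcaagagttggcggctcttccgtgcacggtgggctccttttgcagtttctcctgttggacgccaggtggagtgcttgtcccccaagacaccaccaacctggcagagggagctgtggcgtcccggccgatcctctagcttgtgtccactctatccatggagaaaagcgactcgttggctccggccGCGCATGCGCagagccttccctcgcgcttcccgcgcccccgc
Cox6b1: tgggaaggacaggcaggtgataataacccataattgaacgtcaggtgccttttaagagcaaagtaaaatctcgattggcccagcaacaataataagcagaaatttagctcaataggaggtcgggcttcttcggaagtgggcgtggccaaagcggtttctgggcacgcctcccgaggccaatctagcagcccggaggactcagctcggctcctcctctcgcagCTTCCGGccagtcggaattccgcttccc
Cox7a2: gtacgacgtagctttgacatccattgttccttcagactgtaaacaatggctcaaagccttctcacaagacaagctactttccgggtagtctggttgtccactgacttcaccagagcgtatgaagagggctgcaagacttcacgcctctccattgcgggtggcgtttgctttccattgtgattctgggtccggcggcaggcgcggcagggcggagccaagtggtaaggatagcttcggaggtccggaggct
Cox6a1: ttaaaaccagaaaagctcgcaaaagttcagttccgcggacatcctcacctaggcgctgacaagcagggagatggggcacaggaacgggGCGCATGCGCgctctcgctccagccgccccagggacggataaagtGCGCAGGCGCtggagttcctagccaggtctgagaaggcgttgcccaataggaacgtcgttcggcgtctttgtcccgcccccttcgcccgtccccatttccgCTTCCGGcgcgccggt

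The Atp5g2 window held the exact NRF1 motif, with its first base at -42 from the start. Cox6b1 held the GABPA motif on the other strand at -28. Cox6a1 held the exact NRF1 motif at -162, a looser match at -117 and the GABPA motif at -16. No match to the motifs searched lay in the windows of Cox7c and Cox7a2. The promoter table, which reaches 250 bases before to 50 after a start, matched 32 of the 44 members, with 35 promoters. The exact NRF1 motif lay in 4 of these 35 (11.4%) against 0.971% of all 32851 promoters of that length, and the looser form, which includes it, in 8 (22.9%) against 4.60%. CCGGAAG lay in 11 (31.4%) against 8.86%. The oestrogen-related receptor motif TCAAGGTCA lay in 1 (2.86%) against 0.423%, and the YY1 motif AAGATGGC in 3 (8.57%) against 2.75%. Both strands were searched, and a match is a description of the letters and not evidence of binding.

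Signals are on the log2 scale, so a difference of 1 is a 2-fold change, and levels are not compared between probe sets. Of the 44 members, 38 had a mean signal of at least 4 over the 12 arrays. The other 6 were Atp5g1, Atp5j2, Cox7b2, Cox8c and the pseudogenes Atp5c1-ps and Uqcrh-ps1, and their log2 differences are given without a fold. At the other end, 8 members had a mean of at least 12, where the highest signal of any probe set on an array was 13.37 to 13.52 and a rise has little room. Zbtb7b lay between 4.26 and 4.76 on the WT arrays and between 2.96 and 3.62 on the KO arrays. Ucp1 lay between 11.55 and 12.95 on every array and was lower in KO at 22 °C, with values given beside the knockout comparison. One label field names liver and another knockout. Against this, 10 hepatocyte genes had an average of 3.26 to 3.67 per array, and albumin (Alb) read at most 2.75. The mean of 21 skeletal muscle genes differed widely within groups, from 2.96 to 6.18 in WT at 22 °C, 3.29 to 8.27 in KO at 22 °C, 5.03 to 7.42 in WT in the cold and 4.37 to 8.11 in KO in the cold. Neutrophil genes averaged 4.51 on KO cold replicate 3 and at most 2.90 on the other arrays. KO cold replicate 1 held the lowest signal of the 12 arrays for 15 of the 44 members and for 14.0% of all genes.

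**Figure D1:**
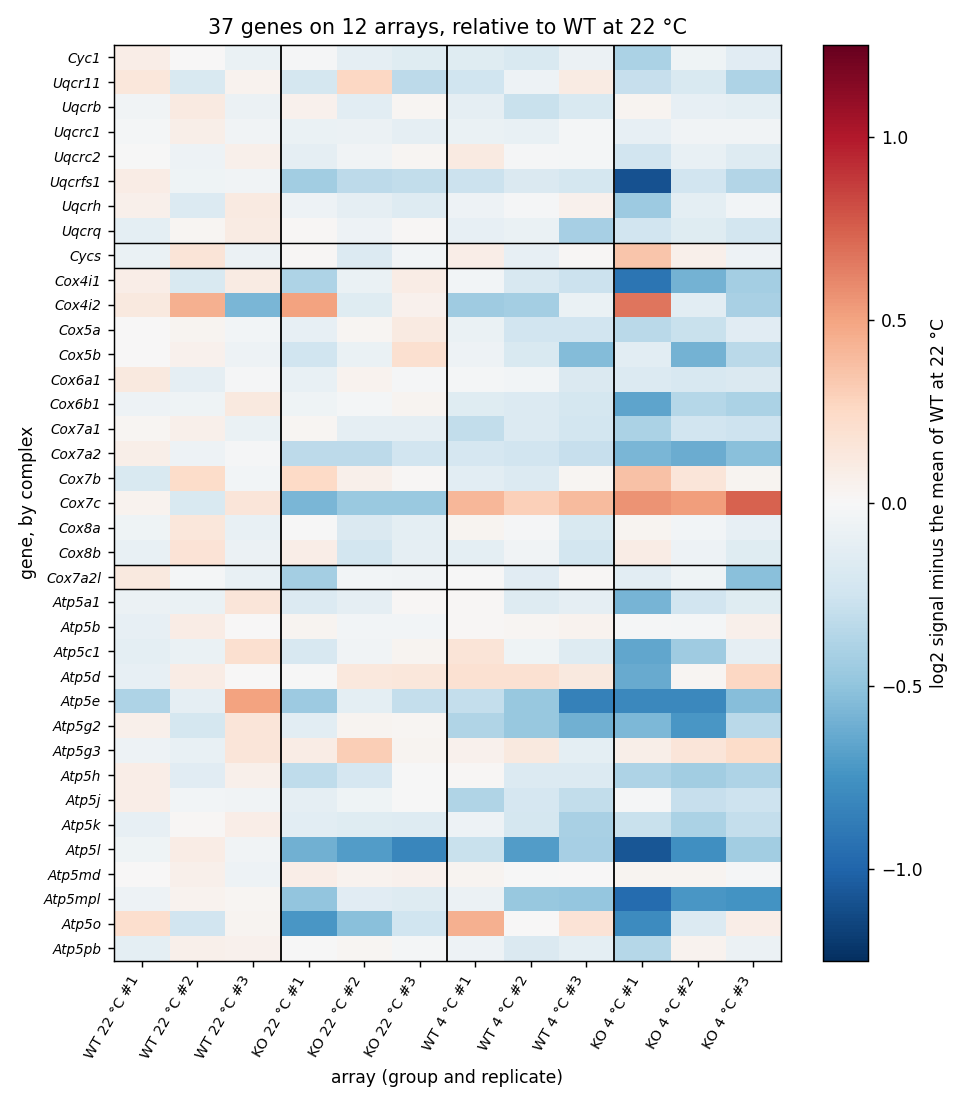
Log2 signal of the members with a mean signal of at least 4, other than Cox6a2, on each of the 12 arrays (columns, by group and replicate), minus the mean of the WT arrays at 22 °C; rows are genes ordered by complex, and the colour bar gives the difference in log2 units. Cox7c is the row that turns from below 0 on the KO arrays at 22 °C to above 0 on all 6 cold arrays, and KO cold replicate 1 has the lowest values of Uqcrfs1, Cox4i1, Atp5l and Atp5mpl.

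The first comparison asked what 4 h of cold did to these genes. Over both genotypes 2 members rose and 7 fell at an adjusted p under 0.05 (limma, Benjamini-Hochberg over all genes), where 27.2% of all genes passed (12.9% higher and 14.3% lower). With each array centred on its median, 1 member was called higher and 12 lower. Cox7c, a small subunit of complex IV, rose 1.67-fold, and Atp5g2, which encodes the membrane ring subunit c of ATP synthase, fell 1.41-fold. The other calls were lower Atp5mpl, Cox6b1, Cox7a2, Atp5e, Cox7a1 and Cox4i1 and higher Atp5j2. The median difference of the 44 members was -0.12 against -0.01 for all genes, and 34 of the 44 were below 0 against 51.5% of all genes. Among members with a mean of at least 4, 8 of 38 passed, against 49.9% of the 10257 genes that bright. The 6 cold arrays lay wholly above the 6 at 22 °C for 1 member and wholly below for 3, against 6.73% and 7.54% of all genes. The 95% interval of the cold difference lay inside 1.5-fold for 31 of those 38, against 42.8% of the genes that bright. Less RNA per brown adipocyte and fewer brown adipocytes in the tissue cannot be told apart in these whole-tissue samples. Lists of cell type genes differed with cold too. The macrophage list mean was 5.57 to 5.95 in WT at 22 °C and 6.28 to 6.71 in WT in the cold, with 13 of 13 genes above 0 and 7 called higher. Of all genes 9.39% were called higher in WT and 52.3% were below 0. In KO the macrophage list mean was 6.34 to 6.80 and 6.27 to 6.91, with 4 genes called higher and 2 lower. Of all genes 8.34% were called higher and 10.8% lower in KO. Of 8 white adipocyte genes 7 were below 0 over both genotypes and 2 were called lower. The brown adipocyte list mean was 7.75 to 8.63 on the arrays at 22 °C and 9.21 to 9.41 on the cold arrays. Of its 11 genes, 4 were called higher and 2 lower over both genotypes. The rise of this mean was not shared by most of the list, as 6 of the 11 were below 0. Their differences ran up to 5.15 with a median of -0.05. The part of these lists in the member differences was not tested.

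The count depended on single arrays. It was 5 when KO replicate 2 at 22 °C, WT cold replicate 2, WT cold replicate 3 or KO cold replicate 2 was left out, and between 6 and 10 without any other single array. Cox7c, Atp5g2, Atp5mpl, Cox6b1 and Cox7a2 passed in each of the 12 fits that left out 1 array. Atp5e lost the call in 7 of these fits, keeping it without WT replicate 1 or 2 or KO replicate 1 at 22 °C, WT cold replicate 1 or KO cold replicate 3, with adjusted p from 0.0129 to 0.0892. Cox4i1 and Atp5j2 lost it in 9 each. Cox4i1 kept it without WT replicate 2 or KO replicate 1 at 22 °C or KO cold replicate 3 (0.0226 to 0.113 over the 12), and Atp5j2 without WT or KO replicate 3 at 22 °C or KO cold replicate 3 (0.0172 to 0.0944). Cox7a1 lost it in 11 (0.0469 to 0.109). All 21 skeletal muscle genes had cold differences above 0 over both genotypes, with a median of 1.55, and 0 of them passed in limma, also at an unadjusted p under 0.05. With the muscle list mean as a covariate, chosen with earlier results known, 5 members passed (Cox7c, Atp5g2, Atp5mpl, Cox6b1 and Atp5j2).

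In the WT arrays alone cold called 0 members higher and 1 lower, where 17.4% of all genes passed (9.39% higher and 7.98% lower). In the KO arrays alone it called 1 higher and 4 lower, where 19.2% passed (8.34% higher and 10.8% lower). The median member difference was -0.12 in WT and -0.10 in KO, against -0.02 and 0.00 for all genes. The 3 cold arrays lay wholly below the 3 at 22 °C for 10 members in WT and 13 in KO, against 18.0% and 17.2% of all genes. The cold arrays lay wholly above for 3 members in each, against 18.8% and 14.4%. Among the 38 members with a mean of at least 4, 10 in WT and 13 in KO lay wholly below, and 2 and 1 wholly above. Of the 10257 genes that bright, 2680 in WT and 2944 in KO lay wholly below, and 3342 and 2082 wholly above. The count in KO dropped to 1 (Cox7c) without KO replicate 2 or 3 at 22 °C or without KO cold replicate 1, and to 3 without KO cold replicate 2. No member passed the test of the genotype by temperature interaction (limma, 0.0271% of all genes did), and 3 had an unadjusted p under 0.05 (Cox7c, Uqcrh-ps1 and Atp5c1-ps), against 10.5% of all genes.

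**Figure D2:**
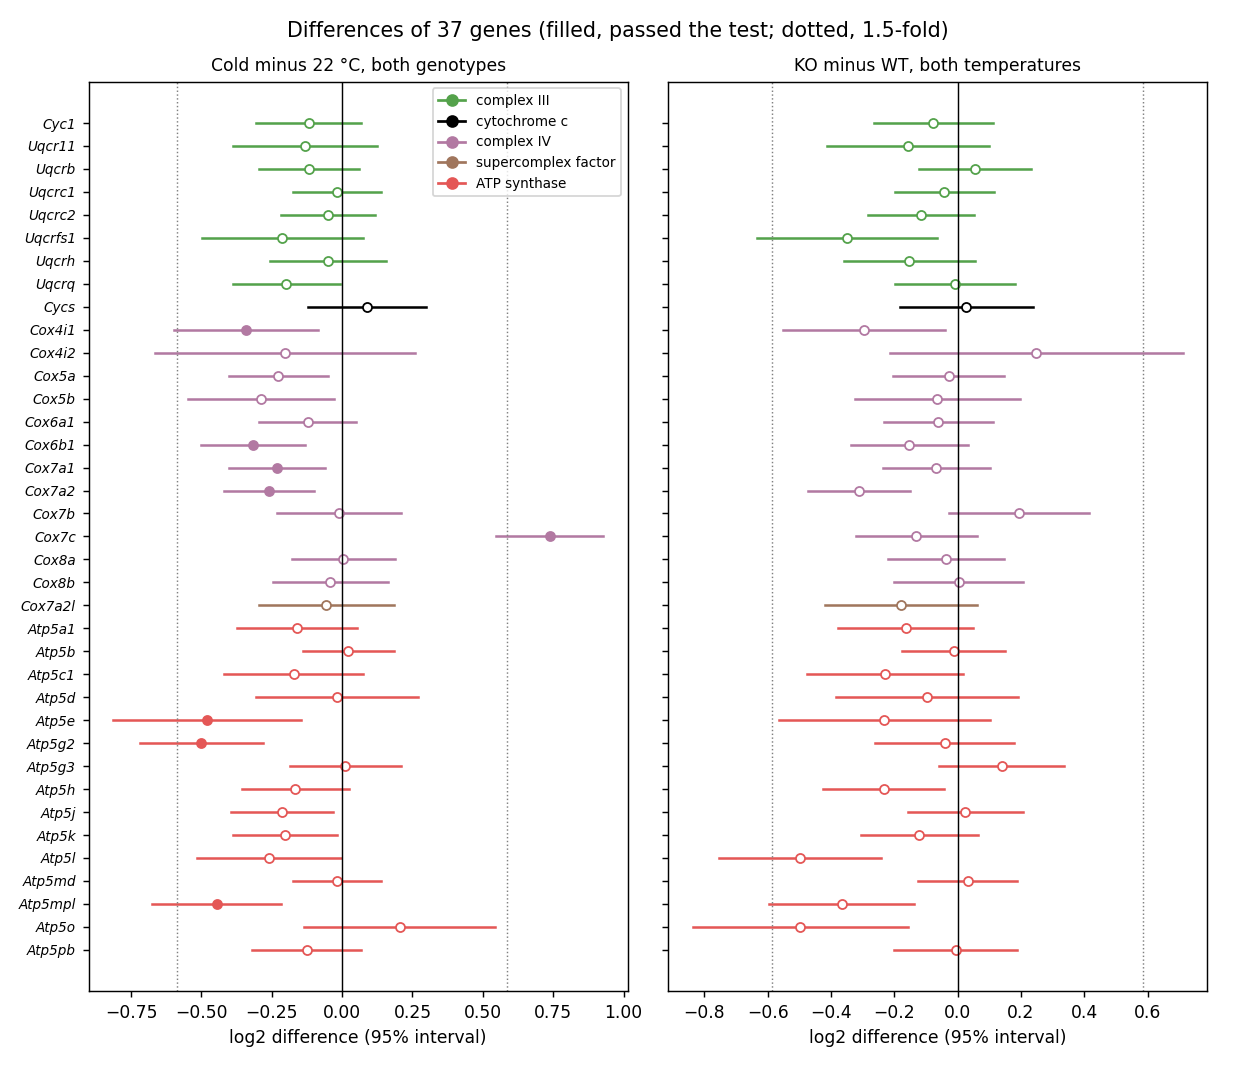
Log2 differences with 95% intervals of the members with a mean signal of at least 4, other than Cox6a2, for cold minus 22 °C over both genotypes (left) and KO minus WT over both temperatures (right), with genes on the vertical axis coloured by complex. Filled points passed the test, dotted lines mark 1.5-fold, and Cox7c at 0.74 is the filled point to the right of 0 on the left side, while no point is filled on the right side.

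Within complex III none of the 8 members passed in any comparison. Of all genes, 27.2% passed with cold over both genotypes, 17.4% in WT and 19.2% in KO. At most 1.63% passed a knockout comparison and 0.0271% the interaction. All 8 members were below 0 in the cold over both genotypes, against 51.5% of all genes, with a median of -0.12 and a range of -0.21 to -0.02. Uqcrc1, one of the large core proteins, read 12.18, 12.28 and 12.16 on the WT arrays at 22 °C, 12.12, 12.14 and 12.10 in KO at 22 °C, 12.12, 12.12 and 12.19 in WT in the cold and 12.11, 12.17 and 12.17 in KO in the cold. The arrays of the 4 groups lay close together, and the cold difference was -0.02 with a 95% interval of -0.17 to 0.14. Cyc1, cytochrome c1, which passes electrons on to cytochrome c, ranged from 11.17 to 11.64 over the 12 arrays, and its cold difference was -0.12 (-0.31 to 0.07).

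Uqcrfs1, the Rieske iron-sulphur protein of complex III, varied more. It read 8.19, 8.04 and 8.05 in WT at 22 °C, 7.66, 7.76 and 7.78 in KO at 22 °C, 7.83, 7.92 and 7.87 in WT in the cold and 7.01, 7.86 and 7.73 in KO in the cold. The 3 KO arrays at 22 °C lay below the 3 WT arrays, and KO cold replicate 1 stood far below its group. KO minus WT over both temperatures was -0.35 ± 0.13 (SE, adjusted p = 0.231). Cycs, cytochrome c itself, ranged from 11.30 to 11.82, with a cold difference of 0.09 (-0.12 to 0.30), and was measured by 5 probe sets, of which 1 repeated the values of another.

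Complex IV held the member with the clearest response. Cox7c read 6.87, 6.64 and 6.98 on the WT arrays at 22 °C and 6.26, 6.37 and 6.37 on the KO arrays, and after cold 7.24, 7.13 and 7.23 in WT and 7.39, 7.35 and 7.57 in KO. All 6 cold arrays lay above all 6 arrays at 22 °C, and within each temperature the genotypes did not overlap, KO being lower at 22 °C and higher in the cold. The rise was 0.74 ± 0.0875 over both genotypes (adjusted p = 5.29e-05), 1.10 ± 0.12 or 2.15-fold in KO (adjusted p = 9.79e-05) and 0.37 ± 0.12 or 1.29-fold in WT (adjusted p = 0.0598). Of the 12 fits that left out 1 array, the WT rise passed in 1, without WT replicate 3 at 22 °C (adjusted p = 0.0472). Of 11 other settings it passed in 2, a mean signal of at least 5 (adjusted p = 0.0226) and array weights (0.0335). KO minus WT was -0.50 ± 0.12 at 22 °C (adjusted p = 0.111) and 0.24 ± 0.12 in the cold (adjusted p = 0.416). The interaction, the KO rise minus the WT rise, was 0.73 ± 0.17 with an adjusted p of 0.210 in limma, and 0.184 to 0.437 over the fits that left out 1 array.

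**Figure D3:**
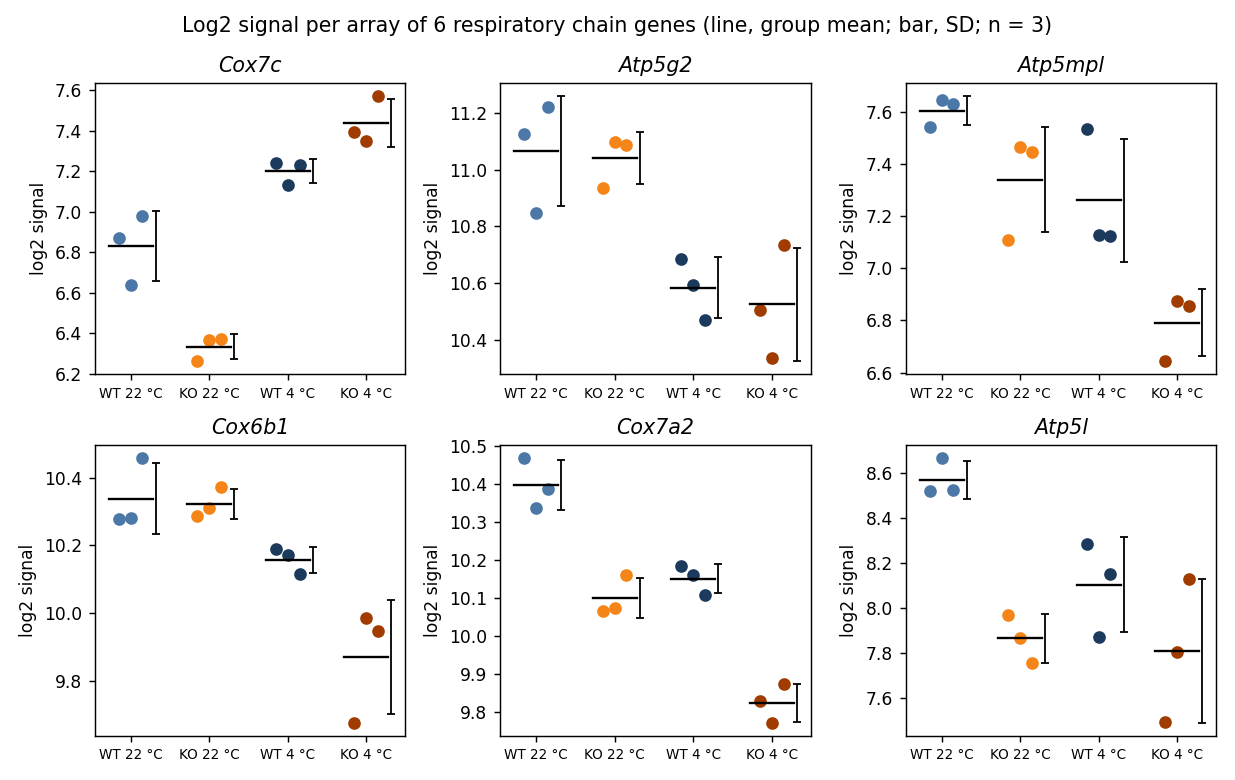
Log2 signal on each array (points, 3 per group) for 6 members in the 4 groups of genotype and temperature, with the group mean as a line and its SD as a bar; each vertical axis has its own range. Cox7c is higher in both cold groups than in both groups at 22 °C, Atp5g2 and Cox6b1 are lower, and the Cox7a2 and Atp5l signals at 22 °C lie lower in KO than in WT.

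Cox6b1, the subunit VIb on the intermembrane side of complex IV, fell. It read 10.28, 10.28 and 10.46 in WT and 10.29, 10.31 and 10.37 in KO at 22 °C, and 10.19, 10.17 and 10.11 in WT and 9.68, 9.98 and 9.95 in KO in the cold. The 6 cold arrays lay below the 6 at 22 °C, with KO cold replicate 1 the lowest. Cox6b1 fell by 0.32 over both genotypes (SE 0.0846, adjusted p = 0.0138) and by 0.45 in KO (SE 0.12, adjusted p = 0.0188), and the WT difference was -0.18 ± 0.12 (adjusted p = 0.367). The KO call was lost without KO cold replicate 1 (adjusted p = 0.0606), without KO replicate 2 at 22 °C (0.0501) and without KO replicate 3 at 22 °C (0.0615).

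Cox7a1 and Cox7a2 are the muscle-and-brown-fat form and the widely expressed form of subunit VIIa. Cox7a2 read 10.47, 10.34 and 10.39 in WT at 22 °C, 10.07, 10.07 and 10.16 in KO at 22 °C, 10.18, 10.16 and 10.11 in WT in the cold and 9.83, 9.77 and 9.87 in KO in the cold. KO lay below WT at each temperature and cold lay below 22 °C in each genotype, with no overlap. It fell by 0.26 with cold over both genotypes (SE 0.0737, adjusted p = 0.0188). Cox7a1 read 11.54, 11.58 and 11.43 in WT at 22 °C, 11.54, 11.40 and 11.40 in KO at 22 °C, 11.21, 11.35 and 11.29 in WT in the cold and 11.13, 11.28 and 11.26 in KO in the cold. The 6 cold arrays of Cox7a1 lay below its 6 at 22 °C, and it fell by 0.23 (SE 0.0783, adjusted p = 0.0461), a call that held in 1 of the 12 fits that left out an array, the one without WT replicate 3 at 22 °C. Cox7a1 and Cox7a2 thus differed from 22 °C by nearly equal amounts, and the difference between them was not tested.

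Cox4i1, the main form of subunit IV, which helps set the activity of complex IV, fell with cold. It read 10.41, 10.14 and 10.43 in WT and 9.94, 10.25 and 10.43 in KO at 22 °C, and 10.29, 10.13 and 10.06 in WT and 9.42, 9.74 and 9.91 in KO in the cold. The WT groups overlapped, the KO groups did not, and KO cold replicate 1 was again the lowest. The cold difference was -0.34 ± 0.12 over both genotypes (adjusted p = 0.0478), -0.52 ± 0.17 in KO (adjusted p = 0.0475) and -0.17 ± 0.17 in WT (adjusted p = 0.573). With single arrays dropped in turn, 9 of 12 fits lost the KO call, and it held without WT replicate 2 or KO replicate 1 at 22 °C or KO cold replicate 3, with adjusted p from 0.0256 to 0.171. Without KO cold replicate 1 the KO difference was -0.38 (adjusted p = 0.159). Cox4i2, the alternative form linked to low oxygen, ranged from 6.43 to 7.67, with overlapping groups and a cold difference of -0.20 (-0.67 to 0.26).

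Cox8a, the widely expressed subunit VIII, read between 12.21 and 12.54 and its cold difference was 0.00 (-0.18 to 0.19). Cox8b, its muscle and brown fat form, read between 11.68 and 12.08 and its cold difference was -0.04 (-0.25 to 0.16). The groups overlapped for both genes in all comparisons of genotype and temperature. The testis form Cox8c and the form Cox7b2 had mean signals of 1.10 and 1.27, near the bottom of the scale.

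Subunit VIa also has 2 forms. Cox6a2, the heart and skeletal muscle form, read 3.34, 4.25 and 2.47 in WT at 22 °C, 7.002, 5.94 and 3.22 in KO at 22 °C, 4.21, 6.05 and 6.19 in WT in the cold and 7.91, 3.48 and 6.40 in KO in the cold. All groups overlapped, and its within-group SD of 1.65 exceeded that of Cox6a1 (0.080), which read between 12.80 and 13.12 on the 12 arrays. Cox6a1 lies near the top of the scale, where spread and slope can be compressed, which limits the comparison of the 2 forms. Within groups, Cox6a2 differed by 0.77 ± 0.0863 for each log2 unit of the muscle list mean (adjusted p = 0.000777 over all genes), and it was the sole member of the 44 to pass this test, which 0.622% of all genes passed. The slope of Cox6a1 was -0.02 ± 0.024. The other 43 members had slopes from -0.11 to 0.10, with a smallest adjusted p of 0.554. Cox6a2 passed none of the comparisons of genotype or temperature. Its KO minus WT difference at 22 °C was 2.04 ± 1.10 (adjusted p = 0.530) and its cold difference in WT 2.13 ± 1.10 (adjusted p = 0.228).

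**Figure D4:**
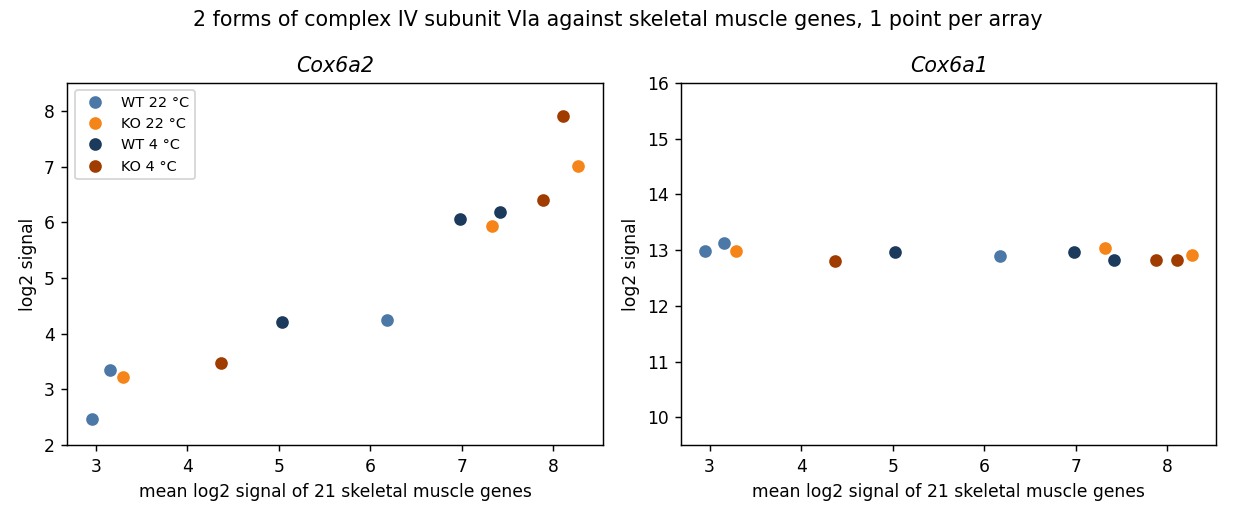
Log2 signal of Cox6a2 (left) and Cox6a1 (right) against the mean log2 signal of 21 skeletal muscle genes, with 1 point per array coloured by group; both vertical axes span the same number of log2 units. Cox6a2 runs from 2.47 to 7.91 along the muscle list mean, while Cox6a1 stays between 12.80 and 13.12.

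Among the ATP synthase genes, 13 of 17 were below 0 in the cold over both genotypes, with 1 called higher and 3 lower. Of all genes 51.5% were below 0, 12.9% were called higher and 14.3% lower. Of the 15 ATP synthase genes with a mean of at least 4, 12 were below 0, 0 were called higher and 3 lower. Among the 10257 genes that bright, 5274 were below 0, 2491 were called higher and 2630 lower. Atp5g2, 1 of 3 genes for the ring subunit c, read 11.13, 10.85 and 11.22 in WT and 10.94, 11.10 and 11.09 in KO at 22 °C, and 10.68, 10.59 and 10.47 in WT and 10.51, 10.34 and 10.73 in KO in the cold. The cold arrays lay below those at 22 °C in both genotypes. Atp5g2 fell by 0.50 over both genotypes (SE 0.10, adjusted p = 0.00244), by 0.48 in WT (SE 0.14, adjusted p = 0.0354) and by 0.52 in KO (SE 0.14, adjusted p = 0.0234). Its second probe set also fell, by 0.49 (adjusted p = 0.00449).

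The call in WT was lost without WT replicate 1 (adjusted p = 0.0993) or 3 (0.117) at 22 °C and without WT cold replicate 1 (0.0597), 2 (0.0876) or 3 (0.127). The call in KO was lost without KO replicate 2 (0.0761) or 3 (0.0713) at 22 °C and without KO cold replicate 1 (0.0539) or 2 (0.0915). Of the other genes for subunit c, Atp5g3 read between 7.74 and 8.17 with a cold difference of 0.01 (-0.19 to 0.21), and Atp5g1 had a mean signal of 2.76.

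Atp5mpl encodes a small membrane proteolipid of ATP synthase. It read 7.54, 7.64 and 7.63 in WT at 22 °C, 7.11, 7.46 and 7.45 in KO at 22 °C, 7.53, 7.13 and 7.12 in WT in the cold and 6.65, 6.87 and 6.86 in KO in the cold. The KO cold arrays lay below all others. Atp5mpl fell by 0.45 with cold over both genotypes (SE 0.11, adjusted p = 0.00684) and by 0.55 in KO (SE 0.15, adjusted p = 0.0221), and the WT difference was -0.34 ± 0.15 (adjusted p = 0.147). The KO call was lost without KO cold replicate 1 (0.0718) and without KO replicate 2 (0.0842) or 3 (0.0785) at 22 °C.

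Atp5e, the epsilon subunit of the rotating stalk, read 8.87, 9.14 and 9.76 in WT and 8.80, 9.14 and 8.95 in KO at 22 °C, and 8.96, 8.79 and 8.41 in WT and 8.45, 8.45 and 8.73 in KO in the cold. The WT groups overlapped and the KO groups did not. It fell by 0.48 (SE 0.15, adjusted p = 0.0344), whereas its dimmer probe set, with a mean of 5.56, had a difference of 0.16 (adjusted p = 0.320), and the mean of its probe sets gave -0.16 (adjusted p = 0.319). Atp5j2, the f subunit of the membrane part, was dim, reading 3.61, 2.74 and 3.95 in WT and 3.43, 2.78 and 3.73 in KO at 22 °C, and 4.15, 4.18 and 4.49 in WT and 4.05, 3.85 and 3.44 in KO in the cold. The WT groups did not overlap, the KO groups did, and its rise over both genotypes was 0.66 ± 0.22 (adjusted p = 0.0395).

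Atp5b, the catalytic beta subunit, read between 12.97 and 13.17 on the 12 arrays, close to the top of the scale, with a cold difference of 0.02 (-0.14 to 0.18). Its partner Atp5a1, the alpha subunit, read between 11.63 and 12.36, with a cold difference of -0.16 (-0.37 to 0.05). Probe sets of 1 gene did not always move together. The bright probe set of Atp5h, the d subunit of the stator, had a cold difference of -0.17 (adjusted p = 0.210), and the dimmer one, with a mean of 6.08, rose by 0.90 (adjusted p = 8.12e-04). For Cox5b the probe sets differed in the knockout comparison. In limma the bright one had KO minus WT of -0.09 in the cold (adjusted p = 0.874) and -0.06 over both temperatures (0.855). The dimmer one, with a mean of 4.95, had -0.81 in the cold (adjusted p = 0.0747) and -0.49 over both temperatures (0.0998).

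The next comparison asked what the knockout changed. No member passed at 22 °C, in the cold or over both temperatures in limma, where 0.550%, 0.911% and 1.63% of all genes passed. At an unadjusted p under 0.05 there were 5 members at 22 °C, 9 in the cold and 7 over both temperatures, against 11.4%, 14.4% and 14.7% of all genes, and all 7 of the last were lower in KO, against 7.51% of all genes. The median member difference was -0.07 at 22 °C, -0.06 in the cold and -0.07 over both, against 0.01, 0.01 and 0.00 for all genes. Over both temperatures the 95% interval lay inside 1.5-fold for 36 of the 44 members, against 79.4% of all genes. At 22 °C the 3 KO arrays lay wholly below the 3 WT arrays for 8 members and wholly above for 0, where 17.0% of all genes did not overlap in either direction and 7.97% lay wholly below. In the cold they lay wholly below for 7 and wholly above for 4, against 11.1% and 9.55%. Among the 38 members with a mean of at least 4, 8 lay wholly below and 0 wholly above at 22 °C. In the cold 6 of these 38 lay wholly below and 2 wholly above. Of the 10257 genes that bright, 954 lay wholly below and 1282 wholly above at 22 °C, and 1997 and 967 in the cold.

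Atp5l, the g subunit of the membrane part of ATP synthase, came nearest to the threshold. It read 8.52, 8.66 and 8.52 in WT at 22 °C, 7.97, 7.87 and 7.76 in KO at 22 °C, 8.29, 7.87 and 8.15 in WT in the cold and 7.49, 7.80 and 8.13 in KO in the cold. The KO arrays lay below the WT arrays at 22 °C, and the genotypes overlapped in the cold. KO minus WT was -0.70 ± 0.17 at 22 °C (adjusted p = 0.0968), -0.29 ± 0.17 in the cold (adjusted p = 0.454) and -0.50 ± 0.12 over both (adjusted p = 0.0594). Without KO cold replicate 3 the last had an adjusted p of 0.0267. Atp5l was singled out after its values were seen, as were Atp5o and Atp5h.

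Cox7a2 had the same adjusted p over both temperatures (-0.31 ± 0.0737, adjusted p = 0.0594), with differences of -0.30 at 22 °C (adjusted p = 0.283) and -0.33 in the cold (adjusted p = 0.177). It lay lower in each group of KO arrays than in the WT arrays of the same temperature. Atp5mpl had -0.47 ± 0.15 in the cold (adjusted p = 0.176) and Atp5o, the stator subunit that joins the stalk to the head, had -0.50 ± 0.16 over both temperatures (adjusted p = 0.150). At 22 °C the macrophage list mean was 5.57 to 5.95 on the WT arrays and 6.34 to 6.80 on the KO arrays, and the white adipocyte list mean was 6.22 to 6.66 and 6.78 to 7.29. In limma 0 of 13 macrophage and 0 of 8 white adipocyte genes passed at 22 °C. At an unadjusted p under 0.05, 12 and 3 of them were higher in KO, against 6.10% of all genes. The brown adipocyte list mean was 8.48 to 8.63 in WT and 7.75 to 8.02 in KO at 22 °C. In KO 3 of its 11 genes were called lower, against 0.284% of all genes. Of the 11 genes, 8 were below 0 and 3 above, with a median difference of -0.14 and a lowest of -3.55. Ucp1, which is on that list, read 12.41 to 12.68 in WT and 11.55 to 12.01 in KO, a 1.74-fold lower signal (-0.80 ± 0.14, adjusted p = 0.0257). All 21 skeletal muscle genes had KO minus WT differences above 0 at 22 °C, with a median of 2.23, where 0 passed and 3 had an unadjusted p under 0.05. The part of these cell types in the member differences was not tested.

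The helpers and partners of these complexes are known to act before or beside the subunits, and lists of them were read in the same fit. Their counts stand against 12.9% of all genes called higher and 14.3% called lower with cold over both genotypes, or 49.9% called among genes with a mean of at least 4. In the cold over both genotypes, assembly factors of complex III had 1 higher and 3 lower of 6 measured, with Ttc19 at 1.13, Lyrm7 at -0.66, Uqcc3 at -0.50 and Bcs1l at -0.39. The list for complex IV assembly, which also holds genes with other roles such as Oma1 (-0.78), had 4 higher and 8 lower of 24 measured. Cox10, which makes the haem A precursor, rose by 0.94 ± 0.0954 (adjusted p = 1.66e-05), Cox19, which helps deliver copper, rose by 0.93 ± 0.0961 (adjusted p = 1.94e-05), and Cmc1 and Tmem177 fell by 0.98 and 1.06. Of the 5 measured genes listed for ATP synthase assembly and inhibition, 0 were higher and 4 lower. Among these 4 were the F1 assembly factor Atpaf2, which fell by 0.57, and the inhibitor Atpif1, which fell by 0.42. The gene not called was Foxred1 (-0.35), which is known as a complex I assembly factor and not as an ATP synthase factor. The medians were -0.31, -0.22 and -0.35, the last with Foxred1 included.

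The shares to set beside the next counts are again 27.2% of all genes called, or 49.9% of genes with a mean of at least 4. Complex I had 2 higher and 9 lower of 33 subunits with a median of -0.20, and complex II 0 higher and 1 lower (Sdhd) of 4. Among complex I genes, Ndufv3 fell by 0.55, and Ndufs5, with a mean signal of 3.81 at 22 °C, rose by 0.69. Ndufa4, which stands on the complex I list but is now counted with complex IV, fell by 0.39. Of 14 known regulators of respiratory genes 6 were higher and 2 lower. Ppargc1a, the coactivator PGC-1alpha, rose 6.33-fold (2.66 ± 0.0875, adjusted p = 4.50e-09), Pprc1 rose by 1.23, and the receptor gene Esrrg and the mitochondrial transcription factor gene Tfb1m fell by 1.07 and 0.77. KO against WT over both temperatures, where 1.63% of all genes passed, called Ttc19 (-0.58, adjusted p = 0.0349) and Taco1, a translation activator for complex IV (-0.48, adjusted p = 0.0377), lower, and called 0 other genes of these 6 lists.

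**Figure D5:**
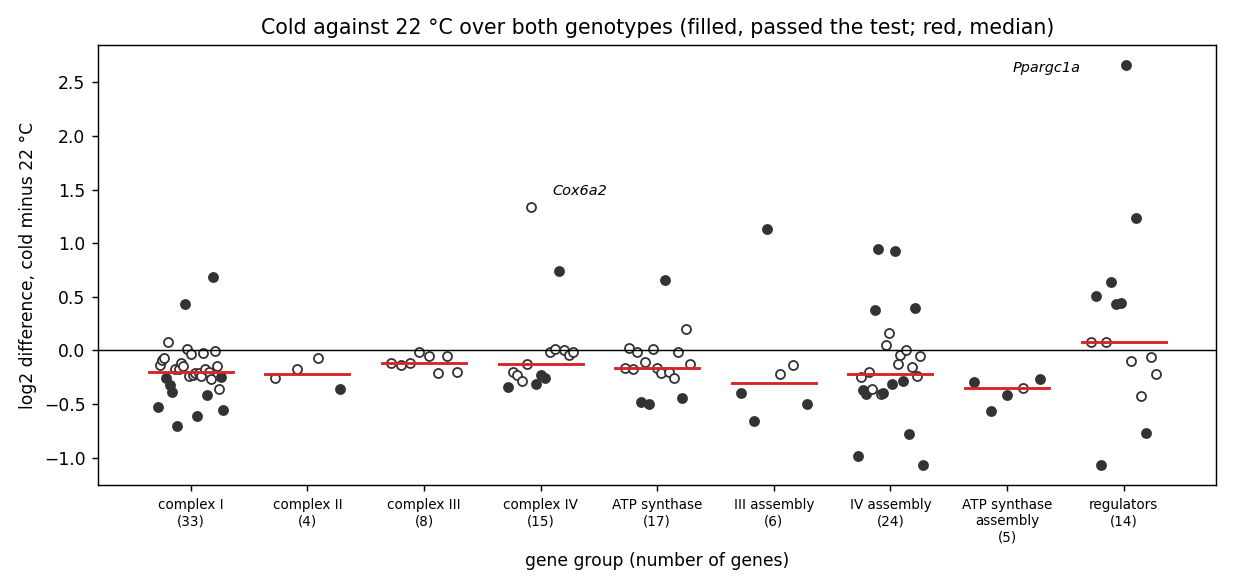
Log2 difference of cold minus 22 °C over both genotypes (vertical axis) for each gene of 9 groups (horizontal axis, with the number of genes), where filled points passed the test and red lines are medians. The subunit groups lie near 0 with medians below it, and the regulator Ppargc1a at 2.66 lies far above all others. The group named ATP synthase assembly includes Foxred1, a complex I assembly factor.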

How the data were processed

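RNA of mouse brown fat was measured on 12 arrays, 3 in each of 4 groups, from 400 ng of labelled RNA per the labels. The authors deposited log2 signals from RMA, a method that corrects background, equalises the arrays and combines the probes of each probe set. The tools oligo, RMA and limma are named without versions in the submitters' processing notes. Array parameters are not given in the sources used here. Precision is limited by the number of arrays.

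Of 41345 probe sets, 23521 with 1 gene symbol were used, while 1814 had several and 16010 had none. Symbols came from the platform annotation, which can be old. The brightest probe set per gene over all arrays was kept, with no filter on low signal. The 44 members had 54 such probe sets.

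In R 4.3.3 with limma 3.58.1, lmFit and eBayes were run on all 22180 genes with 1 mean per group and 7 two-sided comparisons, with Benjamini-Hochberg adjustment over all genes. An adjusted p under 0.05 counted as passed. A further fit gave each gene's slope on the mean of 21 skeletal muscle genes within groups. The method was tested on simulated data.

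The members, lists and tests were chosen with earlier results of these data known. Array values are given for up to 6 members that passed per comparison, for the alternative forms of subunits IV, VIa, VIIa and VIII, and for Cycs, Cyc1, Uqcrc1, Uqcrfs1 and Atp5b, and list genes are the up to 4 with the smallest p. Genes named outside this rule are Ndufa4, Foxred1, Oma1, Atp5a1, Atp5g3 and those described as singled out or as having dim or disagreeing probe sets. Alternatives were each probe set tested separately, probe sets averaged per gene, a mean of at least 5, cyclic loess, median centring, trended and robust spread, array weights, a replicate block, the 6 arrays of a comparison alone, the muscle covariate, KO cold replicates 1 and 3 both left out, and each array left out.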

Additional observations from a re-analysis of the deposited data

How the results depend on the processing

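Over 25 results for single genes and 558 values under other settings, 461 kept their direction and side of the threshold, 85 lost the call, 12 gained it and 0 reversed. The counts of members called moved as follows. In WT in the cold (1 called) the count was 2 with every probe set on its own, with cyclic loess, with the 6 arrays alone and without KO cold replicates 1 and 3, and 4 with a mean signal of at least 5 and with array weights. In KO in the cold (5 called) it was 7 with median centring, 3 with array weights, 1 with the 6 arrays alone and 2 without KO cold replicates 1 and 3. Over both genotypes (9 called) it was 13 with median centring, 12 with a mean of at least 5, 5 with the muscle covariate and 4 without those 2 arrays. KO against WT (0 called) gave 1 at 22 °C with a mean of at least 5 and without those 2 arrays, and 2 over both temperatures, Atp5l and Cox7a2, with a mean of at least 5, with a trended spread and with array weights. Leaving out KO cold replicates 1 and 3 leaves 1 array in that group, assumed to vary like the others. The causes were not tested.

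With 1 array left out, the ranges were 0 to 0 for KO against WT at 22 °C and in the cold, 0 to 1 over both, 0 to 3 for cold in WT, 1 to 5 in KO, 5 to 10 over both genotypes, 0 to 0 for the interaction and 1 to 1 for the muscle slope. Centring each array on its median moved the median of all genes in KO in the cold from 0.00 to -0.12 and that of the members from -0.10 to -0.22.

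The arrays showed no steady pairing by replicate number, and whether same-numbered arrays were handled together was not tested. Over 18 pairs of same-numbered arrays the correlation of deviations from the group means ran from -0.54 to 0.45, with 6 over 0.1, and 4 of 12 arrays lay closest to their own number. With the replicate number as a block the counts were 1 for cold in WT, 4 in KO, 7 over both genotypes and 0 for the knockout comparisons and the interaction, without Cox4i1 (adjusted p = 0.0574 over both genotypes) and Cox7a1 (0.0720).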
